A study of Homo sapiens with 9 samples.

Results

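The circadian clock genes described here are 10 genes, ARNTL, CLOCK, NPAS2, PER1, PER2, CRY1, CRY2, NR1D1, NR1D2 and RORA, out of 60605 genes counted by RNA sequencing in KG-1a, a cell line from a human acute myeloid leukaemia. They were listed by their role in the clock and found by symbol in the authors' deposited table. They were chosen by name, so no value sets a limit for membership. The list, and the comparison of strand-specific counts with counts made without regard to strand, were drawn up with results of these libraries known, among them the levels of ARNTL and RORA under both countings. The levels under each counting are therefore a description with no test, and the calls below place each gene in a fit over all genes and are not independent evidence. All 10 were found, and 9 passed the filter on low counts (20655 genes passed in all). NPAS2 did not.

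The 9 libraries form 3 groups of 3. They are KG-1a cells with wild-type PRMT2 (WT) and 2 independent clones in which PRMT2, a protein arginine methyltransferase gene, was knocked out with CRISPR/Cas9 (clone 1 and clone 2). All were grown in the same medium with 20% fetal bovine serum and received no drug. Each knockout group is 1 clone, and it is not stated whether WT was cloned, whether replicates were separate cultures, or at which hour cells were collected. The p-values then measure the spread between these libraries, and a difference in clock phase cannot be told apart from a difference in level at every phase.

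The clock is a feedback loop of transcription. ARNTL (also called BMAL1) pairs with CLOCK or its relative NPAS2, and the pair binds E-boxes in the promoters of PER and CRY genes, whose proteins return to the nucleus and block the pair. A further loop sets the level of ARNTL, since RORA activates and NR1D1 and NR1D2 (REV-ERB alpha and beta) repress it through ROR elements. ARNTL and CLOCK have been described as needed for the growth of leukaemia stem cells in models of acute myeloid leukaemia.

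Depth was 28006342 to 43149410 counted read pairs per library on the strand of the gene, and 3 counts came to 0.0701 to 0.11 CPM (counts scaled to library size). The counted pairs were only 25.93% to 29.59% of all read pairs of a library. PRMT2 was at 39.0 to 39.8 CPM in the WT libraries and at 20.2 to 21.4 CPM in the 6 knockout libraries. KG-1a is an immature myeloid line. Of 7 markers listed for such a line, CD34, MYB, SPN and the general leukocyte marker PTPRC were at 626, 275.5, 913 and 591 CPM in WT. KIT was at 6.16 CPM. The myeloid markers CD33 and MPO were low, at 0.476 and 0.183 CPM, so the listed markers did not all go the same way. Of 3 T cell markers, CD3D and CD3E fell, from 290 and 52.9 CPM in WT by 1.29 and 1.87 on the log2 scale in clone 1 and by 0.96 and 1.52 in clone 2 (edgeR adjusted p = 9e-25 or less), and CD2 was at or near 0. The sum of the 3 was 335.7 to 354.4 CPM in WT, 128.5 to 136.8 in clone 1 and 161.7 to 173.6 in clone 2. Of 2 megakaryocyte markers, ITGA2B was at 435 CPM in WT and rose by 0.57 and 0.68 (adjusted p = 1.74e-16 and 8.35e-19), and PF4 was at or near 0. KIT, a marker of immature cells, rose by 1.71 in clone 2 (adjusted p = 1.18e-11). The part of these markers in the results below was not tested. The B cell marker MS4A1, the epithelial marker EPCAM and the erythroid gene HBB were at or near 0. Clone 1 replicate 1 stood apart in its share of pairs that mapped to several places, 13.33% against 3.86% to 4.51% elsewhere. Its gene counts also departed from those of clone 1 replicates 2 and 3, with a chi-squared per degree of freedom of 45.03 and 44.37. Every other pair of libraries within a group was at 2.446 to 4.783. No call for ARNTL, RORA, PER1 or NR1D2 against WT was lost without clone 1 replicate 1.

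ARNTL was nearly lost in clone 1, RORA fell in both clones, PER1 rose in both and most in clone 2, and NR1D2 fell in clone 1. CLOCK, PER2, CRY1, CRY2 and NR1D1 stayed within 0.21 of WT on the log2 scale in each clone. In clone 1 against WT, 4 of the 9 tested members passed an adjusted p of 0.05 (edgeR quasi-likelihood test, adjusted over all genes by Benjamini-Hochberg), against 36.2% of all genes tested (17.4% higher and 18.8% lower). Of these, 2 were called lower, meaning that they also moved by 1 or more on the log2 scale, against 4.98% of all genes. In clone 2 against WT, 6 passed, against 30.5% of all genes (14.4% higher and 16.1% lower). There 1 was called higher (1.83% of all genes) and 1 lower (4.13%). Nothing is read from these counts, since the list was made with results known. The median log2 fold change of the 9 members was -0.09 in clone 1 and 0.00 in clone 2, and over all genes tested it was 0.00 in both.

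**Figure D1:**
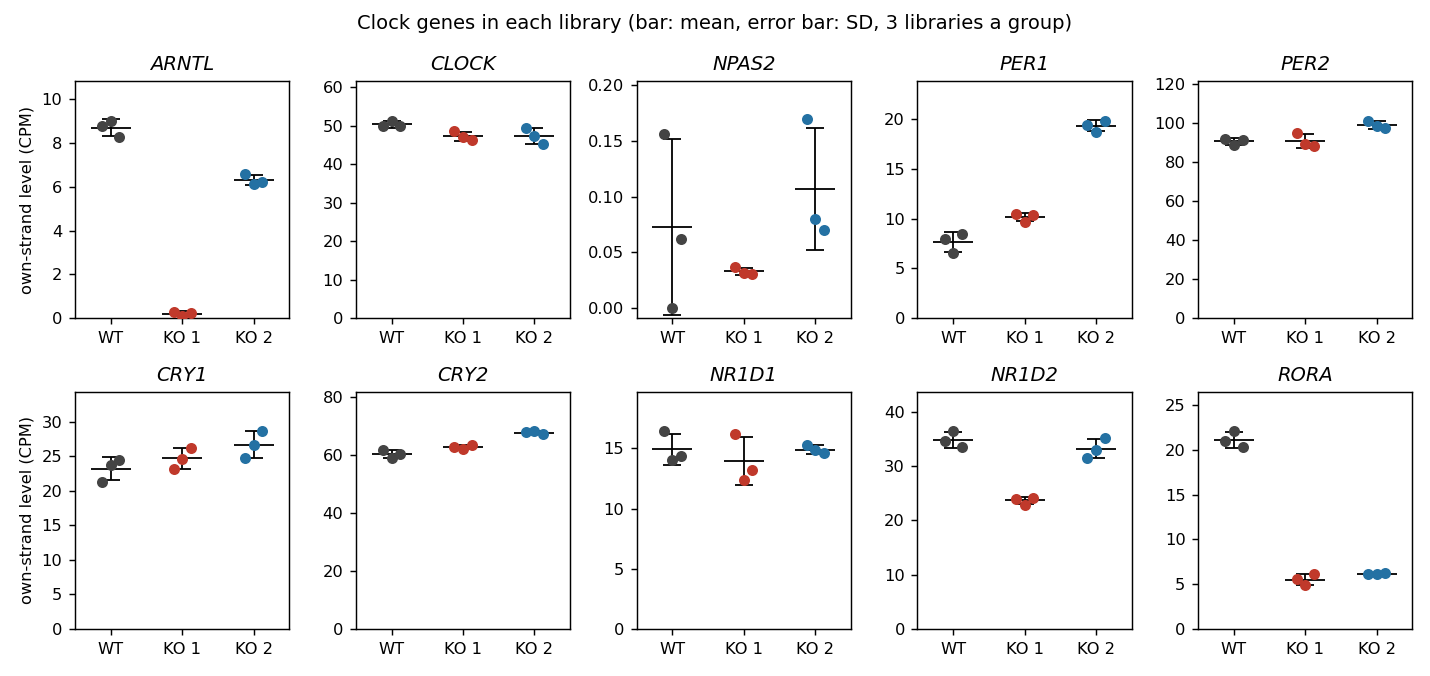
Level of each clock gene in each library, in CPM on the strand of the gene, with its own vertical axis per gene. Points are libraries, horizontal bars are means and error bars are SD (n = 3). ARNTL lies between 0.0931 and 0.293 CPM in clone 1, RORA lies at or below 6.20 CPM in both clones, and the 3 PER1 points of clone 2 lie above all others.

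Levels of different genes were set against each other per kilobase of annotated exon. The length was that of the merged exons of all annotated isoforms, not only of those expressed, so the order is approximate. On this scale PER2 had the highest WT level of the 10, 12.8 ± 0.239 CPM per kb (SD, n = 3). CRY2 followed at 9.74 ± 0.240. NR1D2 (6.01 ± 0.251) and NR1D1 (5.68 ± 0.491) did not differ beyond their spread, and CRY1 (4.84 ± 0.349) and CLOCK (4.37 ± 0.0727) came next. ARNTL (1.25 ± 0.0539), RORA (1.24 ± 0.0522) and PER1 (1.10 ± 0.140) were lower and did not differ beyond their spread. NPAS2 was at 0.00582 CPM per kb.

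Of the activators of the loop, ARNTL changed and CLOCK did not pass the test. ARNTL (ENSG00000133794, GRCh38 chromosome 11, 13276652 to 13387266, plus strand) had 337, 370 and 269 counts in WT, which were 8.79, 9.02 and 8.29 CPM. Clone 1 had 8, 3 and 8 counts, or 0.293, 0.0931 and 0.246 CPM. Clone 2 had 271, 229 and 266 counts, or 6.57, 6.11 and 6.22 CPM. The 3 groups did not overlap, and every clone 1 library was far below the lowest clone 2 library. In bulk RNA, fewer cells that express a gene and less RNA per cell cannot be told apart. Clone 1 thus kept 2.42% of the mean WT level of ARNTL, and clone 2 kept 72.4%. Over the summed counts, 976 in WT and 19 in clone 1, the ratio was 42.3 (exact 95% interval 27.0 to 70.6, counting error only). On the log2 scale, the difference from WT came to -5.38 for clone 1 (SE 0.202, edgeR adjusted p = 1.17e-24) and to -0.47 for clone 2 (SE 0.109, adjusted p = 0.000705). The clones differed by 4.91 (SE 0.210, adjusted p = 7.24e-22).

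The loss was smaller when strand was ignored. Read pairs on the strand opposite to ARNTL numbered 118, 156 and 105 in WT, 97, 117 and 122 in clone 1, and 139, 111 and 125 in clone 2. Their level was 3.37 ± 0.381 CPM in WT, 3.64 ± 0.0970 in clone 1 and 3.08 ± 0.248 in clone 2. The WT libraries overlapped both clones. These pairs were 27.9% of the stranded counts at ARNTL in WT, 32.8% in clone 2 and 94.6% in clone 1. Counted without regard to strand, ARNTL was at 12.3 ± 0.636 CPM in WT, 3.92 ± 0.124 in clone 1 and 9.56 ± 0.465 in clone 2. Clone 1 then kept 31.8% of the WT level in place of 2.42%. The log2 fold change from that counting was -1.65 in clone 1 and -0.37 in clone 2. In the authors' deposited table, which uses it and takes both clones together, ARNTL was at -0.86 (SE 0.407) with an adjusted p of 0.157. The main fit here, on the strand of the gene and with the clones averaged, gave -2.92. These 2 values differ in the counting and in the fit, and the part of each was not tested. A long non-coding RNA gene on the minus strand (ENSG00000290083, chromosome 11, 13276550 to 13277403) shares 421 exonic bases with ARNTL in GENCODE release 44. It has no entry in the count tables used here, and whether the opposite-strand pairs come from it was not tested.

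A feature inside an ARNTL intron was also counted on the ARNTL strand, and whether its pairs come from ARNTL RNA was not tested. RN7SKP151, a small RNA pseudogene that shares no exonic base with ARNTL (chromosome 11, 13353208 to 13353523, plus strand), was chosen after its values were seen. It had 5, 8 and 6 counts in WT, 0 in each clone 1 library, and 11, 4 and 11 in clone 2. The clone 1 libraries were below every other library. It did not pass the filter, so it has no test, and 0 counts allow up to 3 per library.

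**Figure D2:**
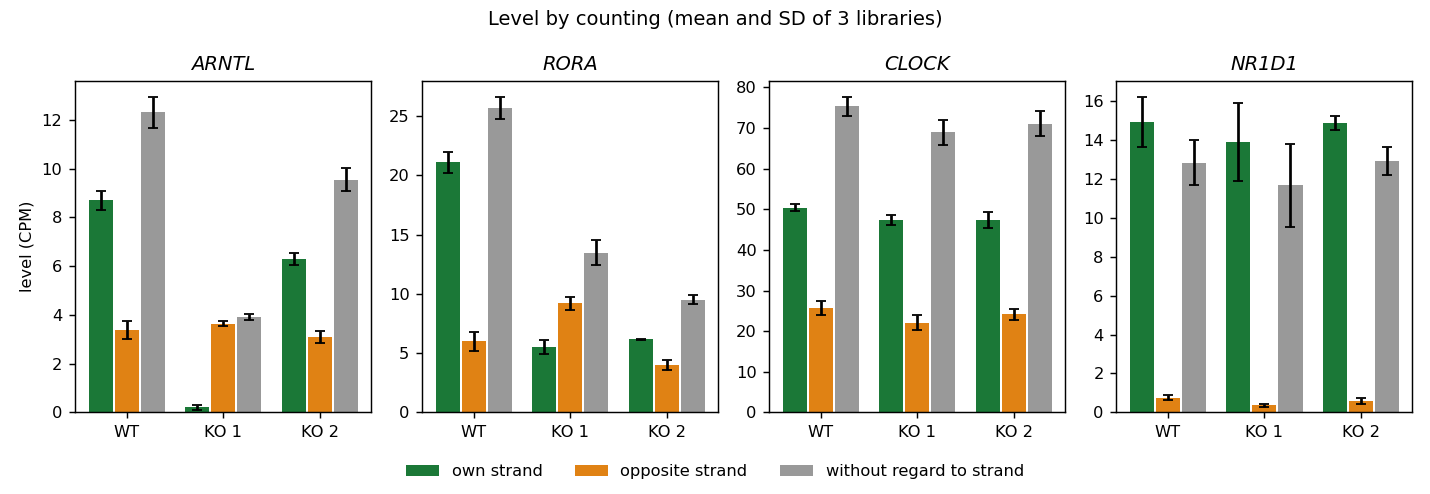
Mean level of ARNTL, RORA, CLOCK and NR1D1 in CPM under 3 countings (bars from 0, error bars SD, n = 3), with a vertical axis per gene. In clone 1 the opposite-strand bar of ARNTL (3.64 CPM) makes up nearly the whole of the bar made without regard to strand (3.92 CPM), and for RORA the opposite-strand bar (9.20 CPM) is taller than that of the gene itself (5.51 CPM).

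CLOCK, the DNA-binding partner of ARNTL, was at 50.4 ± 0.838 CPM in WT, 47.3 ± 1.17 in clone 1 and 47.4 ± 2.06 in clone 2 (SD, n = 3). All 6 knockout libraries lay below the lowest WT library, by a small margin. The log2 fold change was -0.09 in each clone and did not pass (adjusted p = 0.109 and 0.123). Opposite-strand pairs were 31.8% to 33.8% of the stranded counts at CLOCK, with group means of 22.1 to 25.7 CPM. The protein-coding gene TMEM165 on the other strand was at 96.2 to 101 CPM. Its span overlaps that of CLOCK over 25495 bases, but the 2 genes share only 76 exonic bases. Whether the opposite-strand pairs come from TMEM165 was not tested. Without regard to strand, the change of CLOCK in clone 1 was -0.13 with an adjusted p of 0.0123, which passes. On the strand of the gene the change in clone 2 passed without clone 2 replicate 1 (-0.13, adjusted p = 0.0445).

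NPAS2, which can take the place of CLOCK, had 6, 0 and 2 counts in WT, 1 in each clone 1 library, and 7, 3 and 3 in clone 2. These are mostly at or near the floor of 3 counts, and a difference was not detectable at this depth.

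RORA, which activates ARNTL, fell by a similar amount in both clones. RORA (ENSG00000069667, chromosome 15, 60488284 to 61229302, minus strand) was at 20.9, 22.1 and 20.3 CPM in WT. It was at 5.53, 4.94 and 6.08 CPM in clone 1 and at 6.11, 6.16 and 6.20 CPM in clone 2. All 6 knockout libraries were far below the lowest WT value, and each clone 1 library was below each clone 2 library. Against WT, clone 1 stood at -1.94 on the log2 scale (SE 0.0897, adjusted p = 1.61e-21), and clone 2 at -1.78 (SE 0.0853, adjusted p = 7.01e-21). The difference between the clones, 0.16 (SE 0.0985), did not pass (adjusted p = 0.261).

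Pairs on the strand opposite to RORA did not follow the gene. They were at 5.99 ± 0.793 CPM in WT, 9.20 ± 0.554 in clone 1 and 3.98 ± 0.424 in clone 2, so that the groups did not overlap and clone 1 was highest. Their share of the stranded counts was 22.1% in WT, 62.6% in clone 1 and 39.2% in clone 2. Without regard to strand RORA fell by 0.93 in clone 1 and by 1.43 in clone 2, so the first missed the fold minimum. The difference between the clones turned over with the counting. It was 0.16 on the strand of the gene and -0.50 without regard to strand (SE 0.079, adjusted p = 2.59e-06). The authors' deposited table has RORA at -1.16 with an adjusted p of 6.08e-16 and marks it as lower.

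Annotated antisense genes lie within RORA. RORA-AS1, a long non-coding RNA gene that shares 564 exonic bases with it, was at 1.32 ± 0.319 CPM in WT, 2.29 ± 0.341 in clone 1 and 1.13 ± 0.245 in clone 2. Its rise of 0.77 in clone 1 passed (adjusted p = 0.00274), its -0.22 in clone 2 did not (adjusted p = 0.499), and it was lower in clone 2 than in clone 1 (adjusted p = 0.000274). The direction in clone 1 turned over without regard to strand, where RORA-AS1 was at -0.60 in clone 1 (adjusted p = 0.0026) and -0.85 in clone 2 (adjusted p = 2.71e-05). The authors' deposited table has it at -0.72 with an adjusted p of 0.000138 and marks it as not significant. ENSG00000259591, which lies in a RORA intron on the plus strand and shares no exonic base with it, had 0 own-strand counts in every library. Pairs over it in the direction of RORA numbered 77, 68 and 47 in WT, 20, 16 and 14 in clone 1, and 22, 28 and 30 in clone 2. These pairs were lower in every knockout library than in every WT library.

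Of the repressors of the loop, PER1 rose in both clones. PER1 (ENSG00000179094, chromosome 17, 8140472 to 8156506, minus strand), the period gene that also responds quickly to outside signals, was at 7.98, 6.58 and 8.47 CPM in WT. It was at 10.5, 9.68 and 10.4 CPM in clone 1 and at 19.4, 18.7 and 19.9 CPM in clone 2. The 3 groups did not overlap. On the log2 scale, the difference from WT came to 0.41 for clone 1 (SE 0.0907, adjusted p = 0.000298) and to 1.34 for clone 2 (SE 0.0842, adjusted p = 6.18e-17). Clone 2 was higher than clone 1 by 0.93 (SE 0.0833, adjusted p = 8.06e-12). PER1 had 0 to 3 opposite-strand counts per library, and both countings gave the same values to 0.01 in each clone. In the authors' deposited table PER1 was at 0.95 with an adjusted p of 0.0174 and was marked as not significant.

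PER2 rose slightly in clone 2. It was at 90.6 ± 1.69 CPM in WT, 91.0 ± 3.54 in clone 1 and 99.1 ± 2.04 in clone 2. Against WT, clone 1 stood at 0.01 on the log2 scale (adjusted p = 0.938), and clone 2 at 0.13 (adjusted p = 0.00393). The rise against clone 1, 0.12 (adjusted p = 0.0076), did not pass without clone 1 replicate 3 (adjusted p = 0.079). The cryptochromes bind the CLOCK and ARNTL pair to silence it. CRY2 was at 60.4 ± 1.49 CPM in WT, 62.9 ± 0.731 in clone 1 and 67.8 ± 0.560 in clone 2. Its rise of 0.17 in clone 2 passed (adjusted p = 0.00055), and the 0.06 in clone 1 did not (adjusted p = 0.259). CRY1 was at 23.2 ± 1.67 CPM in WT, 24.7 ± 1.52 in clone 1 and 26.7 ± 1.91 in clone 2. Its rise of 0.21 in clone 2 had an adjusted p of 0.0114, which was 0.115 without WT replicate 1 and 0.119 without clone 2 replicate 3. For PER2 and CRY1 the own-strand count exceeded the count made without regard to strand by a ratio of 1.05 to 1.11. Counting without regard to strand sets aside pairs that lie over genes on both strands.

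NR1D2 fell in clone 1. NR1D2 (ENSG00000174738, chromosome 3, 23945286 to 23980617, plus strand), which represses ARNTL, was at 34.5, 36.4 and 33.5 CPM in WT. It was at 23.9, 22.9 and 24.1 CPM in clone 1 and at 31.5, 33.0 and 35.1 CPM in clone 2. Clone 1 lay below the other 6 libraries, and clone 2 overlapped WT. On the log2 scale, the difference from WT came to -0.56 for clone 1 (SE 0.0564, adjusted p = 5.23e-11) and to -0.07 for clone 2 (SE 0.0534, adjusted p = 0.371). The clones differed by 0.49 (SE 0.0562, adjusted p = 3.96e-09).

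NR1D1, the other REV-ERB gene, was at 14.9 ± 1.29 CPM in WT, 13.9 ± 2.00 in clone 1 and 14.9 ± 0.360 in clone 2, and the groups overlapped. Against WT, clone 1 stood at -0.11 on the log2 scale (adjusted p = 0.350), and clone 2 at -0.00 (adjusted p = 0.974). Clone 1 replicate 1 was the highest of its group at 16.2 CPM, and without it the clone 1 change was -0.22 with an adjusted p of 0.0419. The end of NR1D1 overlaps that of THRA, a thyroid hormone receptor gene on the other strand, over 473 exonic bases. THRA fell in both, with 11.2 ± 1.10 CPM in WT, 6.36 ± 0.719 in clone 1 and 5.98 ± 0.217 in clone 2 (log2 fold change -0.81 and -0.91, adjusted p = 1.11e-08 and 5.56e-10). NR1D1 counts on the strand of the gene were 1.17 to 1.22 times those made without regard to strand, and 2.53% to 4.83% of its stranded counts lay on the THRA strand.

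**Figure D3:**
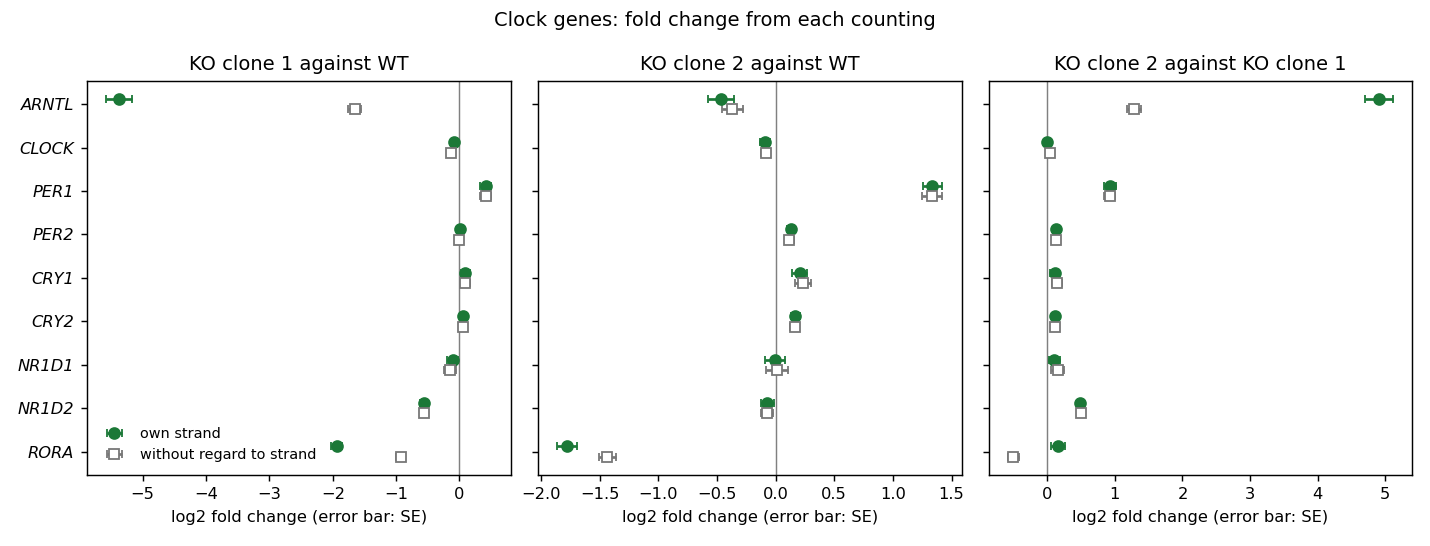
Log2 fold change of the 9 tested clock genes (error bars SE) on the strand of the gene (filled circles) and without regard to strand (open squares), for clone 1 and clone 2 against WT and clone 2 against clone 1. The horizontal scales differ between panels. ARNTL moves from -5.38 to -1.65 and RORA from -1.94 to -0.93 in clone 1, RORA changes sign between the clones (0.16 and -0.50), and the other 7 genes stay within 0.06 of their value.

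In clone 2 against clone 1, 5 of 9 members passed edgeR's adjusted p, against 25.9% of all genes tested. All 5 were higher (13.4% of all genes) and 0 were lower (12.6%), also at an unadjusted p under 0.05. They were ARNTL, PER1, NR1D2, PER2 and CRY2. For CRY2 the difference of 0.11 (adjusted p = 0.0330) did not pass when any 1 of the 6 knockout libraries was left out (adjusted p = 0.0643 to 0.105). With the clones averaged and set against WT, 6 of 9 passed, against 35.3% of all genes, with PER1, CRY1 and CRY2 higher and ARNTL, NR1D2 and RORA lower.

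The promoters of 2 of the moving members are shown because they hold the E-box CACGTG that the CLOCK and ARNTL pair binds, while PER1 rose and NR1D2 fell in clone 1, where ARNTL was nearly lost. All 10 genes matched RefSeq promoter windows of 300 bases (14 windows, GRCh38.p14, 250 bases before to 50 after a start site). The E-box was found on either strand in 2 of the 14 windows, against 7.26% of all 35116 windows. In the sequences below, capitals mark CACGTG, and in NR1D2 also a D-box, searched as TTATGTAA or TTACGTAA on both strands and here matched on the other strand. The PER1 stretch is chr17:8152436-8152654, read from the minus strand, and ends before the annotated exon. The NR1D2 stretch is chr3:23945871-23946120 on the plus strand, before its second start site.
PER1: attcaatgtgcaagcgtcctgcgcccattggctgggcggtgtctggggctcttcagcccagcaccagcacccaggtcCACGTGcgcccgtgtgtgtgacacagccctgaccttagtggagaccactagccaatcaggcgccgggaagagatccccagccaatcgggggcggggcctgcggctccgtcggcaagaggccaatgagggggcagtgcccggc
NR1D2: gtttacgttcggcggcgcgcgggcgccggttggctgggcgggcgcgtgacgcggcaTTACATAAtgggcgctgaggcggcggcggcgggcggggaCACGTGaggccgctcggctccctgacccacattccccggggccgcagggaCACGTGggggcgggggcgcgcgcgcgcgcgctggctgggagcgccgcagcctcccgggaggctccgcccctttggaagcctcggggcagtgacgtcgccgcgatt

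The PER1 E-box begins 173 bases before the start site, and the NR1D2 E-boxes begin 155 and 105 bases before theirs. The variant CACGTT was found in 5 windows, 1 each of CLOCK, PER2, CRY1, CRY2 and NR1D1 (5.34% of all windows). A D-box was found in 2 windows (1.01% of all windows), that of NR1D2 shown above and that of PER2, where it begins 3 bases before the start site. The ROR element TAGGTCA was found in 2 windows (1.85% of all windows), of CRY2 and of ARNTL. The ARNTL match is shown because RORA, NR1D1 and NR1D2 act on ARNTL through such elements. It begins 30 bases after a start site (chr11:13277812-13277834, plus strand), with the element in capitals.
ARNTL: gcagaaagTAGGTCAgggacgga

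The cyclic AMP element TGACGTCA was found in 0 of the 14 windows. A match is a description of the letters in these windows and does not show that a factor binds there.

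Beyond the 10 genes, 31 other genes of the clock pathway were listed and 30 were tested. In clone 1, 9 passed the adjusted p higher and 9 lower, and in clone 2, 11 higher and 5 lower. Over all genes tested, 17.4% passed higher and 18.8% lower in clone 1, and 14.4% higher and 16.1% lower in clone 2. Their median log2 fold change was 0.03 in clone 1 and 0.08 in clone 2, against 0.00 over all genes. The 2 largest falls were in HLF and RORB.

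Of the paralogs, RORB fell in both clones with RORA. RORB (ENSG00000198963) was at 79.2, 82.0 and 79.4 CPM in WT, 9.30, 9.10 and 9.60 in clone 1, and 8.39 to 10.01 in clone 2. The clones overlapped each other and lay far below WT. On the log2 scale, the difference from WT came to -3.10 for clone 1 (SE 0.0604, adjusted p = 1.11e-34) and to -3.11 for clone 2 (SE 0.0582, adjusted p = 4.44e-35). ARNTL2, which can also pair with CLOCK, was at 12.8 ± 0.556 CPM in WT, 13.8 ± 0.908 in clone 1 and 13.7 ± 0.292 in clone 2, with log2 fold changes of 0.10 in each (adjusted p = 0.332 and 0.389). PER3 was at -0.11 in clone 1 (adjusted p = 0.0459) and -0.02 in clone 2 (adjusted p = 0.746).

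The D-box factors are outputs of the loop that act back on PER genes. In clone 1, 3 of 4 passed lower (18.8% of all genes), and in clone 2 also 3 of 4 (16.1%). NFIL3, the repressor that binds D-boxes, had 21.6 ± 1.73 CPM in WT, 9.71 ± 0.411 in clone 1 and 17.7 ± 0.0590 in clone 2. Against WT, clone 1 stood at -1.16 on the log2 scale (adjusted p = 1.18e-16), and clone 2 at -0.29 (adjusted p = 0.000805). DBP, an activator at D-boxes and a direct E-box target, fell in clone 2. It was at 15.2 ± 0.474 CPM in WT, 13.5 ± 1.40 in clone 1 and 10.1 ± 0.0564 in clone 2, with changes of -0.17 (adjusted p = 0.0867) and -0.59 (adjusted p = 9.46e-08). HLF, at 2.32 CPM in WT, fell by 3.25 and 3.53 (adjusted p = 3.15e-11 and 1.75e-12). It had 85, 81 and 90 counts in WT. In the clones it was near the floor, with 9, 8 and 5 counts in clone 1 and 14, 4 and 6 in clone 2.

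Among the E-box repressors, CIART, which blocks the CLOCK and ARNTL pair, was near the floor with 8, 8 and 1 counts in WT, 7, 11 and 11 in clone 1, and 29, 17 and 32 in clone 2. The clone 2 libraries were above all others. Clone 2 was higher than WT by 2.06 (SE 0.449, adjusted p = 0.000313), and clone 1 was at 1.04 (SE 0.521, adjusted p = 0.12). BHLHE40 fell by 0.20 in clone 1 (adjusted p = 1.71e-05) and rose by 0.12 in clone 2 (adjusted p = 0.00899). BHLHE41 was at 0.356 CPM in WT and passed in neither clone.

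Kinases and ubiquitin ligase subunits set how long PER and CRY proteins last. Of 7, 3 passed higher in clone 1 (17.4% of all genes), and 5 passed higher (14.4%) and 1 lower (16.1%) in clone 2. CSNK1E, a casein kinase that marks PER proteins for breakdown, was at 16.8 ± 0.965 CPM in WT, 30.0 ± 0.222 in clone 1 and 30.2 ± 1.26 in clone 2. Its log2 fold change was 0.84 in clone 1 and 0.85 in clone 2 (adjusted p = 3.88e-15 and 1.98e-15), so it did not reach the fold minimum. The readthrough gene TPTEP2-CSNK1E shares 1316 exonic bases with CSNK1E on the same strand, and how pairs over both were divided was not tested. CSNK1D rose by 0.17 and 0.25 (adjusted p = 2.57e-05 and 1.22e-08).

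Of the 9 corepressors and partners, 5 passed higher in clone 1 (17.4% of all genes) and 3 in clone 2 (14.4%), and 0 passed lower in either by edgeR's adjusted p (18.8% and 16.1%). The 4 output genes passed as 1 higher and 3 lower in clone 1 and as 1 higher and 0 lower in clone 2, against the same shares. The higher gene in each was WEE1, a cell cycle kinase driven by E-boxes, at 0.16 and 0.09. Genes that, like PER1, respond at once to serum were listed too. Of 8, 0 passed higher in either clone against WT by edgeR's adjusted p, while 3 passed lower in clone 1 (18.8% of all genes) and 1 in clone 2 (16.1%). In clone 2 against clone 1, 3 of the 8 passed higher (13.4% of all genes) and 0 lower (12.6%). JUN fell by 1.03 and 0.98 (adjusted p = 9.04e-06 and 1.22e-05), and FOS was at -0.03 and -0.21.

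**Figure D4:**
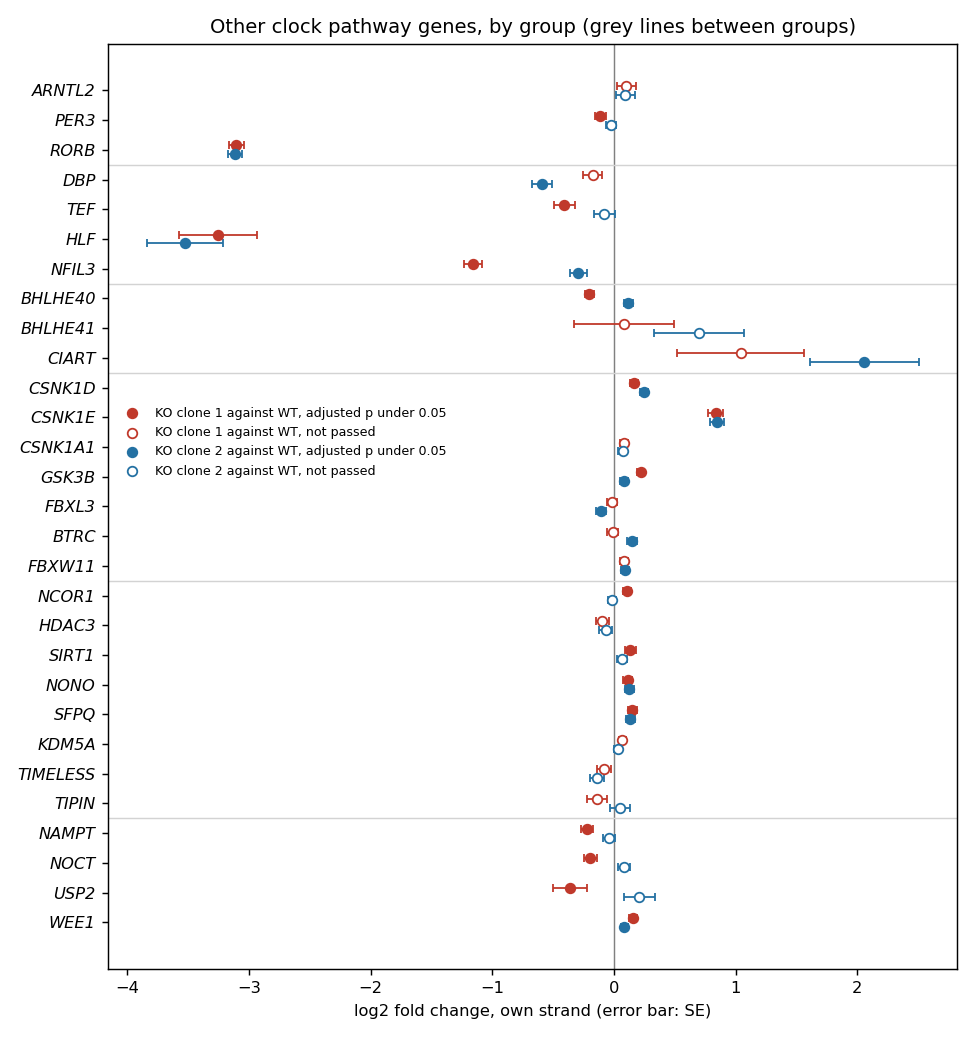
Log2 fold change against WT of the tested genes of the clock pathway other than the 10 members (1 of the 30 is not shown), in clone 1 (red) and clone 2 (blue), on the strand of the gene. Error bars are SE, and filled points passed an adjusted p of 0.05. RORB (-3.10 and -3.11) and HLF (-3.25 and -3.53) lie far to the left in both clones, NFIL3 in clone 1 (-1.16), and CIART to the right in clone 2 (2.06).

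The genes most like ARNTL and RORA were sought by Pearson correlation of log2 CPM over the 9 libraries, among 10597 genes with a symbol and a mean of at least 5 CPM. For ARNTL these were TOX, DNMT3B, EFNB2, CDH6 and OSBPL3 (r = 0.991 to 0.994). Each was lowest in clone 1. None fell as far as ARNTL. In WT, clone 1 and clone 2, EFNB2 was at 19.1, 6.88 and 16.4 CPM, TOX at 221, 157 and 210, and OSBPL3 at 78.7, 65 and 77.1. For RORA they were ADAMTS6, NPR3, SNHG14, SHANK2 and IL18RAP (r = 0.997 to 0.999), all lower in both clones. With 3 groups of 3 libraries, such values follow the group means, and they carry no test.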

How the data were processed

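RNA was sequenced as read pairs of 150 bases from 9 libraries, 3 per group, grouped by the labels. The authors aligned with STAR, per the submitters' processing notes; its version is not given in the sources used here. The deposited files hold raw read counts per gene under 3 countings (without regard to strand and for each strand). The deposited comparison table holds log2 fold changes, p-values and normalised count signal, and its raw counts equal the counting without regard to strand in 9 libraries. Own-strand pairs were 92.03% to 92.31% of stranded counts, so these were used here. edgeR 4.0.16 in R 4.3.3 (TMM, filterByExpr, quasi-likelihood test over 3 groups, Benjamini-Hochberg over all genes tested) was the main test, checked on simulated data, and DESeq2 1.42.0 an alternative. Both clones share the WT libraries. Names and positions came from GENCODE release 44. Members, lists and tests were chosen with earlier results of these data known. All 10 members were named, other pathway genes from the fixed lists. From the data, not the labels, deviations of same-numbered WT and clone 2 libraries correlated at 0.107 to 0.145. Differently numbered WT and clone 2 pairs were at -0.192 to 0.074, and same-numbered pairs with clone 1 at -0.077 to 0.058. However, clone 1 replicate 2 with clone 2 replicate 3 reached 0.144, so these values do not establish a pairing. The main fit had no replicate block, and fits with a block were alternatives. Intervals and the floor of 3 counts cover counting error only.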

Additional observations from a re-analysis of the deposited data

Results flagged for a closer look

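Clone 2 and clone 1 differed, by edgeR's adjusted p for the contrast between them, in 5 of the 9 tested clock genes, against 25.9% of all genes tested. The PER2 difference did not pass without clone 1 replicate 3 (adjusted p = 0.079). That of CRY2 did not pass when any 1 of the 6 knockout libraries was left out (adjusted p = 0.0643 to 0.105). The log2 difference of clone 2 over clone 1 was 4.91 for ARNTL (adjusted p = 7.24e-22), 0.93 for PER1 (8.06e-12), 0.49 for NR1D2 (3.96e-09), 0.12 for PER2 (0.0076) and 0.11 for CRY2 (0.033).

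Of the 30 other pathway genes tested, 8 passed higher in clone 2 than in clone 1 (13.4% of all genes) and 3 lower (12.6%). Values are given only for passing genes among the up to 3 per group with the smallest p in the mean of the clones against WT. The difference was 0.86 for NFIL3 (adjusted p = 3.82e-12), 0.32 for BHLHE40 (3.12e-09), 0.27 for NOCT (5.18e-05), 0.18 for NAMPT (0.00526), 0.0813 for CSNK1D (0.0466), -0.14 for GSK3B (0.000768) and -0.42 for DBP (0.000119), all by edgeR. Each clone is a single clone, so clone and any other difference between the cultures cannot be told apart.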

How the results depend on the processing

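Of 504 recomputed member fold changes (36 under 14 alternatives each), 472 kept their direction and side of the threshold, 12 changed sign, 6 newly passed and 14 no longer passed. Without regard to strand, RORA in clone 2 against clone 1 turned to -0.50, PER2 in clone 1 to -0.0062 and NR1D1 in clone 2 to 0.0109, and with no filter on low counts PER2 in clone 1 was -0.0029. With single libraries left out, PER2 in clone 1 ranged from -0.0269 to 0.0263, NR1D1 from -0.0495 to 0.0688 in clone 2 and from -0.115 to 0.0174 in the mean of the clones, and CLOCK between the clones from -0.0314 to 0.0337. Members passing between the clones numbered 3 to 5, with 3 without clone 1 replicate 3. CRY1 in the mean of the clones had an adjusted p of 0.082 and CRY2 between the clones 0.0534 by the DESeq2 Wald test. ARNTL in clone 1 ranged from -5.65 to -5.01 and RORA from -2.02 to -1.86. With a replicate block, members passing stayed at 4 in clone 1, 6 in clone 2, and 5 between the clones, and genes called in clone 1 were 1557. An edgeR fit of the WT and clone 2 libraries alone, chosen after seeing the data, kept 6 members passing and gave 1217 genes called with the replicate block and 1216 without it. Neither block changed the call of a clock gene.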
